A study of Mus musculus with 4 samples.

Results

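The heat-shock and DnaJ chaperone genes were taken as every gene symbol in a spatial count table of mouse brain that begins with Hspa, Hspb, Hspd, Hspe or Hsph and a digit, or with Hsp90, Dnaja, Dnajb or Dnajc, which gave 66 of 19465 genes. This rule used symbols only and no measured value, but it was set with earlier results of these data known. The table came from coronal, formalin-fixed and paraffin-embedded brain sections that contain striatum, from 2 wild-type brains and 2 brains heterozygous for Celsr3, an atypical cadherin, none of them treated, measured with the Visium CytAssist assay for fixed tissue. In this assay pairs of gene-specific probes are read out on a slide of barcoded spots, each a small region that can hold several cells of different types. The age, sex and strain background of the mice, the Celsr3 allele and any pooling are not given in the sources used here.

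The 12602 spots carry 4 barcode endings, here called barcode sets 1 to 4, and no label ties an ending to a mouse or a genotype. No genotype comparison was therefore made, and each set is described on its own. The intervals below are 95% intervals for counting error only, without the variation between animals. All but 1 spot reached the minimum of 500 counts, leaving 12601 spots. Total counts ranged from 90752475 in set 4 to 174761560 in set 1, and median counts per spot from 26444.5 to 52481. Spot barcodes mark positions on the slide, and 3376 of 4744 different barcodes occurred in more than 1 set. Celsr3 lay between 26.0 and 47.2 CPM (a gene's counts scaled to a total of 1000000) over the sets, and no set was assigned a genotype from it.

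Chaperones bind unfolded or partly folded proteins and help them fold, assemble, cross membranes or reach degradation. Hsp70 proteins hold and release such clients through cycles of ATP hydrolysis, J-proteins (the Dnaja, Dnajb and Dnajc families) deliver clients and stimulate that hydrolysis, and Hsp110 proteins exchange the nucleotide. Hsp90 proteins act later on selected clients, the Hspd1 and Hspe1 chaperonin folds proteins inside mitochondria, and small heat-shock proteins hold unfolding proteins without ATP. The cytosolic inducible members are controlled by heat-shock factors, and many members of the endoplasmic reticulum (ER) by the unfolded protein response. In brain, chaperones also serve neurons at synapses, where Dnajc5 protects vesicle proteins and Dnajc6 helps to strip clathrin from vesicles.

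Promoter windows of 54 of the 66 members were present in a RefSeq table (build GRCm38.p6, 250 bases before to 50 bases after a gene start), as 71 windows. A heat-shock element, searched on both strands as GAA, TTC and GAA, or as TTC, GAA and TTC, with 2 bases of any kind between the triplets, was found in 6 of the 71 windows, from Dnajb6, Hspd1, Hspe1 and Hsph1, 8.45% of them against 0.603% of all 32817 windows in the table. An ER stress element, searched on both strands as CCAAT and CCACG with 9 bases of any kind between them, was found in 3 windows, from Dnajc3, Hsp90b1 and Hspa5, 4.23% of them against 0.119% of all windows. The windows below are shown because they hold these letters in members among the 10 widest ranges over the sets (Hspe1, Hsph1) or called in a brain area (Hspa5, Dnajc3), and because Hsp90b1 had the area profile most like that of Hspa5. The capitals mark the matched bases, and a match describes letters, not a bound site. The windows of Hspd1 and Hspe1 lie head to head on opposite strands of chromosome 1 and share 285 bases, so the capitals of Hspe1 are also those of Hspd1. The Dnajb6 windows overlap each other and hold the same match, as do the Hsph1 windows, so the 6 windows are not 6 separate matches.
Hspe1, chr1:55087898-55088197, plus strand: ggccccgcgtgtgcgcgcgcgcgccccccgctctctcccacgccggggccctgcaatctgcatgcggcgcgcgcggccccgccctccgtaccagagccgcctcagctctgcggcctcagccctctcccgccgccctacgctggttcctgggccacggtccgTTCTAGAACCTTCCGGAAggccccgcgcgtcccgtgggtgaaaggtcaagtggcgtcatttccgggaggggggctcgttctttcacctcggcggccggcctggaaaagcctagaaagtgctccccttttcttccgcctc
Hsph1, chr5:149636266-149636565, minus strand: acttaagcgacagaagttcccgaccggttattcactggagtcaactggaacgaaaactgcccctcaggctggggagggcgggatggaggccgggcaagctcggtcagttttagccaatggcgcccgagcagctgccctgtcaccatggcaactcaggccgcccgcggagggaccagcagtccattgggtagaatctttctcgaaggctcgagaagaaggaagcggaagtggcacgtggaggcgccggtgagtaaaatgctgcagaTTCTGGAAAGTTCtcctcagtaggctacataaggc
Hspa5, chr2:34771840-34772139, plus strand: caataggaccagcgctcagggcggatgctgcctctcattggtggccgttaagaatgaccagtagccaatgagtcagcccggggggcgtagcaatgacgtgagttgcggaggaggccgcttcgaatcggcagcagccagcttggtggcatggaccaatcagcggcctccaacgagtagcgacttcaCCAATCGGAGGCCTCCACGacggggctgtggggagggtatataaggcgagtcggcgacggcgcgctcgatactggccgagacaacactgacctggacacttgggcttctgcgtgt
Hsp90b1, chr10:86705395-86705694, minus strand: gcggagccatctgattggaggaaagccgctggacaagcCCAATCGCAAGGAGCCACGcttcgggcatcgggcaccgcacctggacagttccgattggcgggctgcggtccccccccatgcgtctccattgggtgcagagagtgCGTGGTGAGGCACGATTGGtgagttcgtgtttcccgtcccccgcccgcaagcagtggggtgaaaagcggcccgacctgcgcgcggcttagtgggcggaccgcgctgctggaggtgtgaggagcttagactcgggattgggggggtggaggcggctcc
Dnajc3, chr14:118937682-118937981, plus strand: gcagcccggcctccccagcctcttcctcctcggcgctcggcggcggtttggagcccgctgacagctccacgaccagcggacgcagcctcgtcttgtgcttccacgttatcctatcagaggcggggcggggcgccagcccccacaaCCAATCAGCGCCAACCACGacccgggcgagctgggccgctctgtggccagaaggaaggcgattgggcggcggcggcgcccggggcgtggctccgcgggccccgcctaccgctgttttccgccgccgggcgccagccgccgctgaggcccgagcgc

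Of the 66 members, 48 had a mean level of at least 10 CPM over the 4 sets and were compared. Another 10 lay between 1 and 10 CPM, and 8 lay below 1 CPM (Dnajc5b, Hspb7, Dnajc5g, Dnajb8, Hspb9, Dnajb7, Dnajc22 and Hspa1l). The most counts over all sets fell on Hsp90aa1 with 369080, Hsp90b1 with 346465 and Hspa5 with 251214, and the fewest on Dnajc5g with 103, Dnajc22 with 119 and Dnajb7 with 127. Each gene has its own probes, so levels are compared between areas or sets for the same gene and not between genes. Hspa8, Hsp90ab1, Dnaja3, Dnajc8, Dnajc17 and Dnajc19 were not analysed here.

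The spots were grouped into 28 clusters without using any chaperone gene, and 20 clusters were placed in 9 brain areas by marker lists, while 8 clusters with 2655 spots stayed unnamed. Different clusters held the same area in different sets: the striatal area lay mainly in cluster 0 in sets 1 and 3, cluster 5 in set 2 and cluster 17 in set 4, and the upper cortical area in cluster 7 in sets 1 to 3 and cluster 16 in set 4. The deep cortical area lay mainly in cluster 2 in sets 1 to 3 and cluster 10 in set 4. In set 2, 236 of the 307 spots of the hypothalamic and preoptic area lay in cluster 23, led by Gal and Nts. That cluster had 0, 4 and 0 spots in sets 1, 3 and 4. Clusters 10 and 16 had the activity-induced genes Arc and Nr4a1 among their 20 leading genes. Where sets are compared within these areas, the clusters behind the values therefore differ. The area placed by the septal marker list was led by Tac2, Ngfr, Lhx8 and the cholinergic genes Slc18a3 and Chat, and is called the cholinergic area below. The area placed by the choroid plexus list also held genes of the ventricle lining, whose 23 markers summed to between 3432 and 5622 CPM there in the 4 sets. The 18 choroid plexus markers summed to 154327, 776, 177989 and 43284 CPM in sets 1 to 4, so in set 2 this area was nearly free of choroid plexus signal, and it is called the ventricle and choroid plexus area. In the white matter area the 24 white matter markers summed to 116156, 79698, 74323 and 91662 CPM in sets 1 to 4. The 26 striatal markers summed there to 2872, 10751, 5353 and 4976 CPM, so its spots were mixed most with striatal signal in set 2. The part of this mixing in the white matter ratios was not tested. The thalamic area had at least 30 spots in sets 1 and 4 only, and values for it come from those sets.

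Across areas, the chaperone genes did not move as a block. A gene was called in an area when its level there was at least 1.5-fold higher, or at least 1.5-fold lower, than in all other spots of the same set, in every set used. This gave 20 pairs of a member and an area that were higher and 13 that were lower among the 48 compared members, and 22 that were lower when set 2 was left out. In the striatal area 1 member was higher and 2 lower, against 6.31% and 12% of the 10144 genes compared. In the upper cortical area 1 was higher and 1 lower (all genes 3.37% and 7.6%), in the deep cortical area 0 and 1 (2.69% and 6.61%), in the cholinergic area 2 and 1 (4.09% and 7.1%), and in the hypothalamic and preoptic area 1 and 0 (5.13% and 6.28%). In the thalamic area 3 were higher and 1 lower (5.17% and 8.84%), in white matter 3 and 5 (8.78% and 13.9%), in the ventricle and choroid plexus area 6 and 2 (7.39% and 10.8%), and in the meningeal area 3 and 0 (5.7% and 4.15%). The median member lay close to the median gene in most areas: its log2 ratio was -0.08 against -0.07 in the striatal area and -0.10 against -0.08 in the deep cortical area. In white matter it was -0.26 against -0.13 and in the meningeal area -0.22 against -0.08. A spot level cannot tell fewer cells of a type from less RNA per cell.

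**Figure D1:**
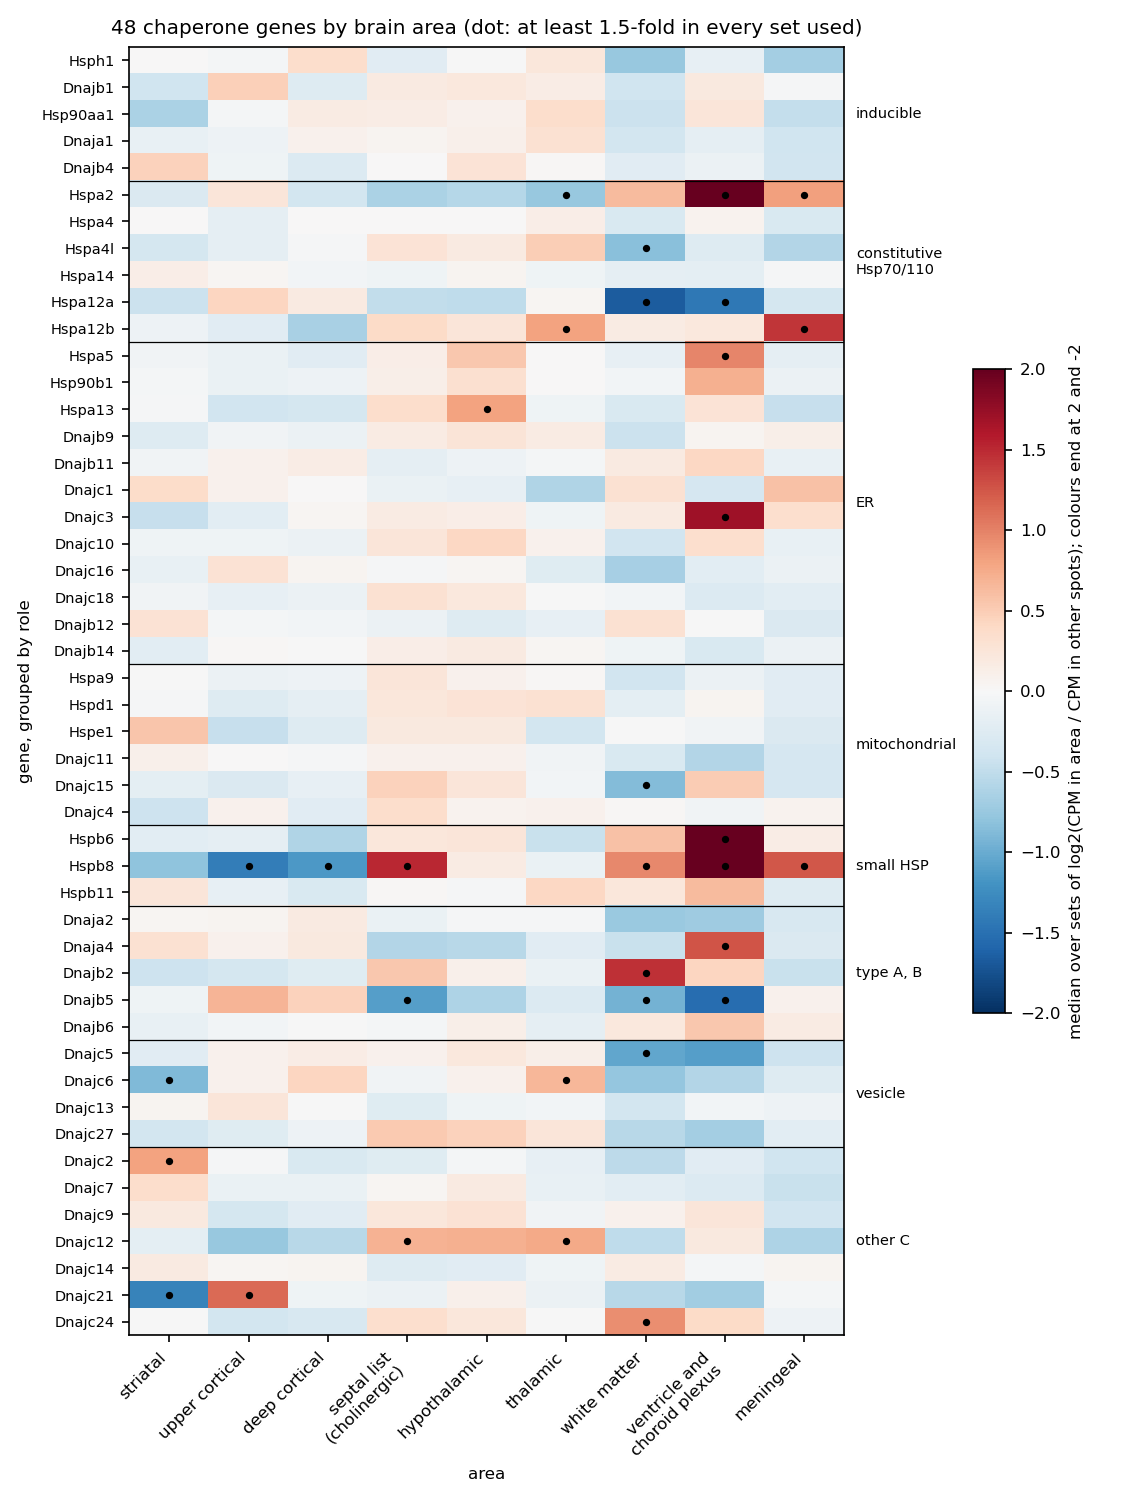
Colour gives the median over sets of the log2 ratio of a gene's CPM in an area (columns) to its CPM in all other spots, for the 48 compared members in rows grouped by role. Colours end at 2 and -2, and dots mark the called pairs (20 higher, 13 lower), and in the ventricle and choroid plexus column Hspa2 is at 2.37 and Hspb8 at 2.22, an order that turns when spots need 2000 counts (1.49 and 2.86, with choroid plexus spots of sets 1 and 3 only).

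Between whole sections, the members that differed were nearly all lower in set 2 or set 4. At a difference of at least 1.5-fold on the log2(CPM + 1) scale, 11 of 48 members were higher in set 1 than in set 2 and 0 lower, against 15.7% and 8.69% of all genes. Against set 4, 13 members were higher in set 1 and 0 lower (all genes 15.9% and 9.96%). Set 3 exceeded set 4 for 9 members and was exceeded for 0 (13.3% and 9.91%), and exceeded set 2 for 8 members and was exceeded for 1, Dnajb5 (11.5% and 6.77%). No member was apart between sets 1 and 3, where 2.34% of all genes exceeded the threshold in favour of set 1 and 0.838% in favour of set 3. The same held between sets 2 and 4, with 1.25% of all genes in favour of set 2 and 2.03% in favour of set 4. Dnajb9, Dnajb11, Hspa14, Hspa9 and Hsph1 were apart in each of the 4 pairs that had any member apart. The pairs share sets, so they are not separate evidence.

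Over the 4 sets, 17 of 48 members had a highest level at least 1.5-fold above the lowest, against 38.6% of all genes, and the median range of the members was 0.48 on the log2 scale against 0.49 for all genes. The 17 members are thus close to the share of all genes. Of them, 14 were highest in set 1, 2 in set 3 (Hspe1 and Dnajc15) and 1 in set 2 (Dnajb5). Scaling by TMM in place of total counts moved the median gene from 0.07 to 0.24 between sets 1 and 2, from 0.07 to 0.31 between sets 1 and 4, from -0.06 to -0.21 between sets 2 and 3, and from 0.06 to 0.28 between sets 3 and 4. With it, 16 members were higher in set 1 than in set 2 and 0 lower, against 24.5% and 4.91% of all genes, 17 and 0 between sets 1 and 4 (29.6% and 4.4%), 16 and 0 between sets 3 and 4 (25.9% and 4.58%), and 12 members were higher in set 3 than in set 2 and 0 lower (18.8% and 4.19%). The median member moved with the median gene, from 0.22 by CPM to 0.44 by TMM between sets 3 and 4.

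Other measures moved with these sets. The summed level of 14 activity-induced immediate-early genes was 657, 1439, 600.3 and 1484 CPM in sets 1 to 4, high in the sets where most of the 17 members were low. The 18 choroid plexus markers summed over whole sections to 7657, 115, 6438 and 709.7 CPM, and 4 blood genes to 10.2, 26.2, 6.09 and 126.5 CPM. Sets 1 and 3 were also the deeper ones. With counts thinned to those of the smallest set, set 1 differed from set 2 for 11 members and from set 4 for 14, and set 3 from set 4 for 10. Thinning removes the summed counts of a set evenly and keeps their proportions, so it bears on counting error only. It cannot test other differences between sets that go with depth, and no share of all genes was computed for it. The part of the immediate-early and blood signals in the member differences was not tested.

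**Figure D2:**
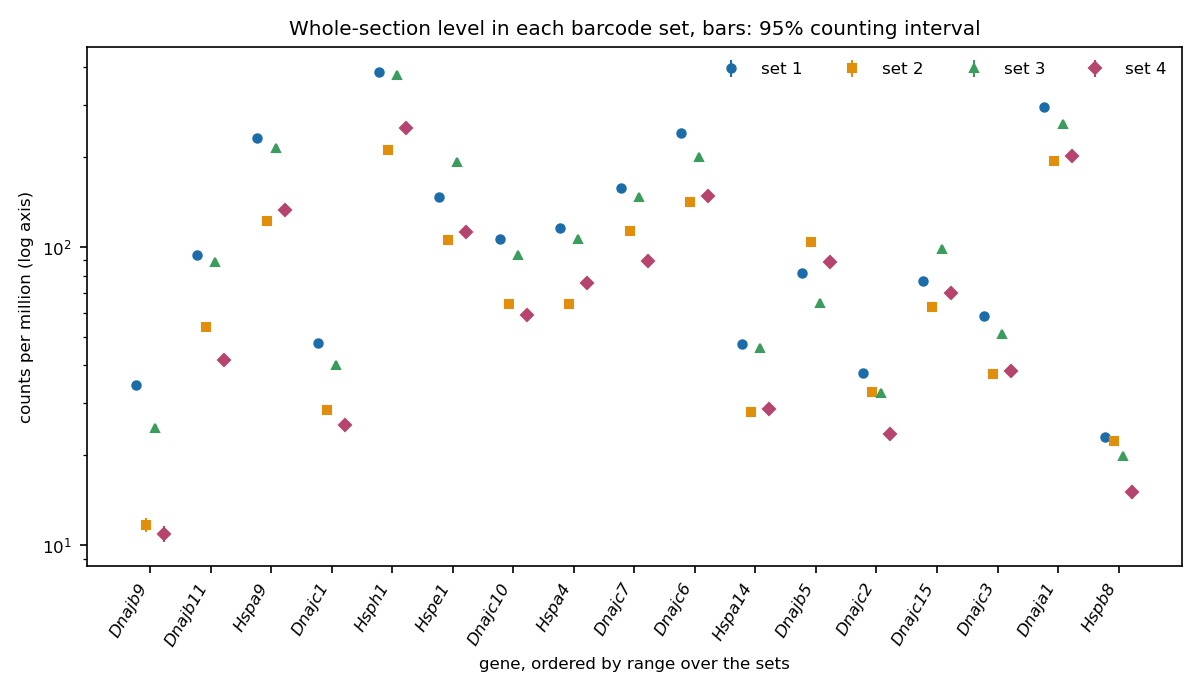
Whole-section level (CPM, log axis) of the 17 members with a range of at least 1.5-fold, ordered by range, in barcode sets 1 to 4, with 95% counting intervals as bars. Dnajb9 runs from 10.9 CPM in set 4 to 34.5 in set 1, and Dnajb5 is the only one of the 17 with its highest point in set 2.

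The widest ranges over the sets, those of Dnajb9 and Dnajb11, belonged to ER chaperones. Of 12 compared, 5 were higher in set 1 than in set 2 (all genes 15.7%), and also 5 higher in set 1 than in set 4 (15.9%). Fewer were higher in set 3: Dnajb9 and Dnajb11 against set 2 (11.5%), and these with Dnajc1 and Dnajc10 against set 4 (13.3%). These counts and shares are by CPM. By TMM the shares of all genes higher in set 1 were 24.5% against set 2 and 29.6% against set 4. The ER members were not counted by TMM. Dnajb9, an ER J-protein that works with the ER Hsp70, was at 34.5, 11.7, 24.7 and 10.9 CPM in sets 1 to 4. Set 1 was the highest and sets 2 and 4 the lowest, with highest over lowest at 3.17-fold (2.97 to 3.40). Dnajb11, another ER cochaperone of the same Hsp70, was at 93.8, 54.0, 89.3 and 41.8 CPM, 2.25-fold from set 4 to set 1 (2.17 to 2.33). Among the 48 compared members, these were the only ones apart by 2-fold over the sets.

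Within areas the same sets were high for most of these values. Fold ranges over the sets within an area are given on CPM + 1, while the whole-section folds above are ratios of CPM. In the 8 areas with at least 30 spots in every set, Dnajb9 was highest in set 1 in all 8, by 2.76-fold (white matter) to 3.65-fold (cholinergic area). In the striatal area it was at 28.7, 11.4, 22.2 and 8.72 CPM, and in the deep cortical area at 30.9, 9.46, 23.8 and 11.0 CPM. Dnajb11 was highest in set 1 in 7 of 8 areas, with set 3 slightly above set 1 in the hypothalamic and preoptic area at 89.4 against 87.5 CPM. Its range within areas was 2.07-fold to 2.82-fold. Both genes were at least 2-fold apart over the sets in each of the 8 areas.

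**Figure D3:**
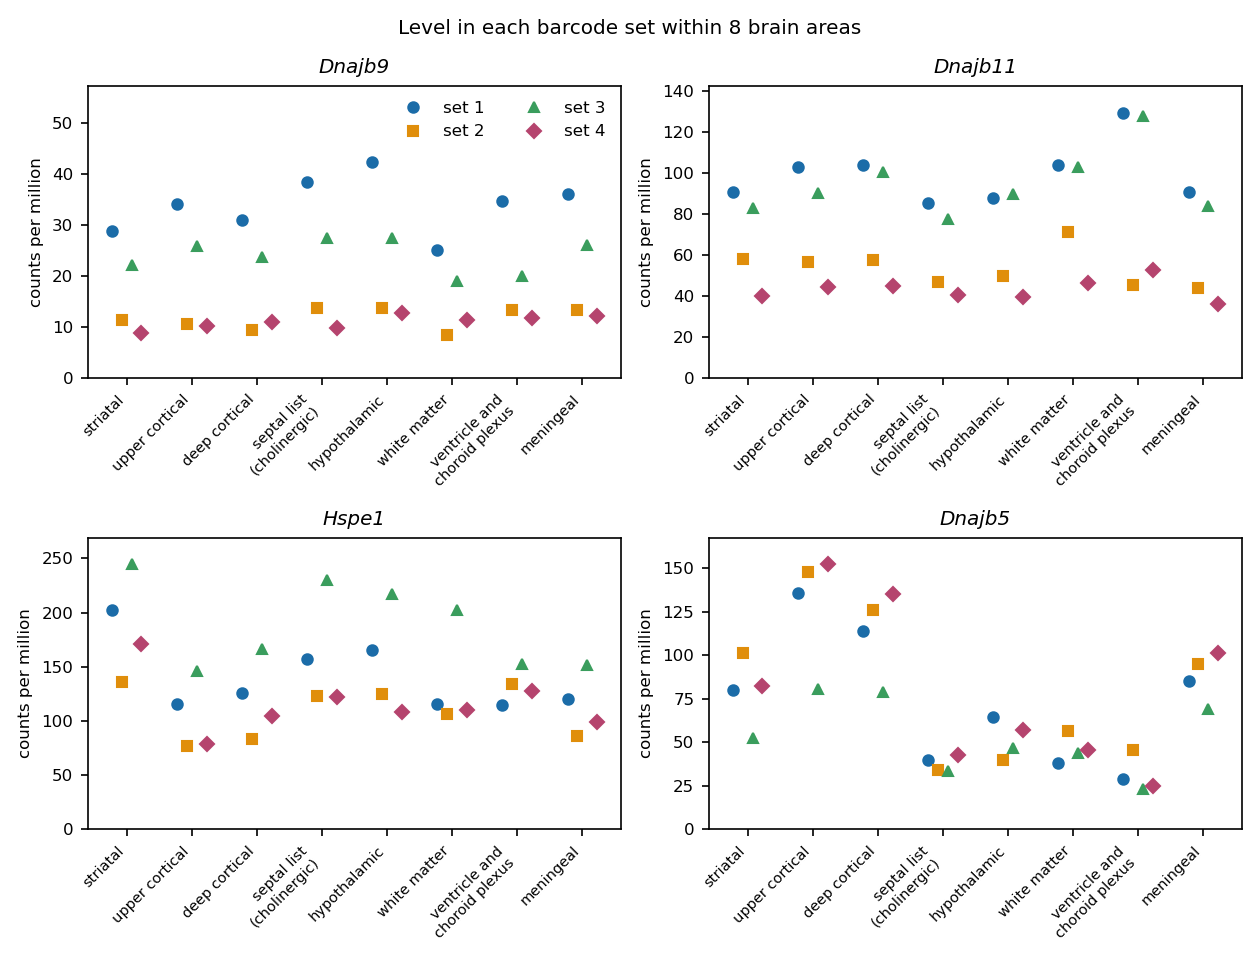
Level (CPM) of Dnajb9, Dnajb11, Hspe1 and Dnajb5 in barcode sets 1 to 4 within 8 brain areas. Dnajb9 has set 1 on top in all 8 areas and Hspe1 has set 3 on top in all 8, while the order of the sets for Dnajb5 changes between areas.

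Dnajc1, an ER membrane J-protein, was at 47.5, 28.4, 40.3 and 25.2 CPM, 1.88-fold from set 4 to set 1, and it was highest in set 1 in 8 of 8 areas. Dnajc10, an ER J-protein with disulfide reductase activity, was at 106, 64.3, 93.9 and 59.1 CPM, with set 1 highest in 7 of 8 areas. Dnajc3, which inhibits the translation-blocking kinase PERK and acts as an ER cochaperone, was at 58.6, 37.6, 51.1 and 38.3 CPM. All of these genes had their higher levels in sets 1 and 3. The most counted ER chaperones had other orders: Hspa5 (BiP, the ER Hsp70) was at 440.4, 541, 440.2 and 465 CPM, highest in set 2 in 8 of 8 areas. Hsp90b1 (the ER Hsp90, GRP94) was at 588, 650.3, 704 and 618 CPM, highest in set 3 in 8 of 8 areas. Neither range reached 1.5-fold over whole sections.

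In the ventricle and choroid plexus area 2 of the 12 compared ER members, Hspa5 and Dnajc3, were called higher and 0 lower, against 7.39% and 10.8% of all genes. Hspa5 was at 926, 942, 858 and 891 CPM there against 417, 539, 426 and 459 CPM in other spots, 1.75-fold to 2.22-fold. Hsp90b1 was at 939, 891, 1125 and 1049 CPM against 572, 649, 689.8 and 612 CPM, with ratios of 1.64, 1.37, 1.63 and 1.72, so set 2 kept it below the threshold. Dnajc3 was at 175, 91.9, 151 and 140 CPM against 53.1, 37.2, 47.8 and 36.8 CPM, and set 2, with little choroid plexus signal, had its lowest ratio of 2.47. Dnajb9 was not called in any area, and its ratio in the ventricle and choroid plexus area had a median log2 of 0.06.

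Neither gene was called in the hypothalamic and preoptic area, where the ratios of Hspa5 and Hsp90b1 were 1.43-fold to 1.48-fold and 1.21-fold to 1.33-fold. Across the 9 areas their median log2 ratios had a correlation of 0.99, among the highest of the 1128 member pairs, whose median was 0.11. The areas share libraries and spots of mixed cells, so this is a description. Hspa13, a microsomal Hsp70 relative, was the member called in the hypothalamic and preoptic area, at 96.7, 121, 108 and 86.4 CPM against 57.9, 65.7, 61.9 and 49.5 CPM, 1.67-fold to 1.84-fold higher. Avp and Oxt, the genes of the neuropeptides vasopressin and oxytocin, led a cluster of this area. That cluster had 218, 3, 114 and 186 spots in sets 1 to 4, so the set 2 level comes mostly from other clusters. The remaining compared ER members, Dnajc16, Dnajc18, Dnajb12 and Dnajb14, had no area call and ranges over the sets of 1.13-fold to 1.42-fold. Dnajc25 was below the level for comparison at 8.88, 7.38, 9.48 and 6.67 CPM.

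The inducible cytosolic set had 5 compared members, of which 2 were higher in set 1 than in set 2, against 15.7% of all genes. Only Hsph1 of them was also higher in set 1 than in set 4 (all genes 15.9%), and in set 3 than in set 2 (11.5%) and set 4 (13.3%). Hsph1, the inducible Hsp110, was at 387, 211, 378 and 251 CPM, 1.84-fold from set 2 to set 1 (1.81 to 1.87). Within areas its range depended on the area, from 2.14-fold in the upper cortical area, where it was at 441, 205, 367 and 245 CPM, to 1.18-fold in the ventricle and choroid plexus area, where it was at 296, 274, 299 and 254 CPM. Hsph1 was lower in white matter than elsewhere in every set, at ratios of 0.436, 0.721, 0.609 and 0.576, without a call because of set 2. Set 2 also had the highest striatal marker sum in that area. Dnaja1, an Hsp70 partner, was at 293, 194, 259 and 202 CPM and was apart between sets 1 and 2 only.

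The other inducible members were not ordered this way. Dnajb1, the main J-protein partner of inducible Hsp70, was lowest in set 1 at 64.8, 86.8, 84.0 and 84.0 CPM, and was lowest in set 1 in 8 of 8 areas. Hsp90aa1, the inducible cytosolic Hsp90, was at 756, 662, 632 and 660.4 CPM. In the striatal area Hsp90aa1 was at 522, 482, 446 and 446 CPM against 815, 722, 684 and 694 CPM elsewhere, ratios of 0.640 to 0.668 that lay just short of the 1.5-fold threshold in set 2. Dnajb4 was at 74.3, 73.2, 59.2 and 65.1 CPM and in the striatal area 1.36-fold to 1.48-fold above other spots.

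Hspa1a and Hspa1b, the stress-induced Hsp70 genes, are near-identical neighbours whose probes could share targets, so their split is uncertain. Hspa1b was at 7.05, 3.66, 6.998 and 4.39 CPM from 1232, 401, 1156 and 398 counts, and Hspa1a at 3.80, 1.98, 3.96 and 2.17 CPM from 664, 217, 654 and 197 counts. Both were below the level for comparison and are described only. Hspa1b was at 22.3, 9.28, 25.1 and 8.76 CPM in the upper cortical area, and at 2.49, 1.60, 1.27 and 1.40 CPM in the striatal area. In the ventricle and choroid plexus area it was at 7.22, 16.0, 8.16 and 11.0 CPM. The values of sets 2 and 4 lie above those of the upper cortical area. However, the ventricle and choroid plexus area held only 750824 and 1272312 counts over all genes in these sets. These levels thus rest on few Hspa1b counts, and their order against the upper cortical area is uncertain. The Hspa1b ratio to other spots was above 1 in the upper cortical area and below 1 in the striatal area in all 4 sets. Over whole sections, sets 2 and 4, with the higher immediate-early sums, had the lower levels of both genes.

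Among the constitutive Hsp70 and Hsp110 genes, 6 were compared, and 2 of them, Hspa4 and Hspa14, were higher in set 1 than in set 2 and set 4, against 15.7% and 15.9% of all genes. Both were also higher in set 3 than in set 2 (11.5%), and only Hspa14 was higher in set 3 than in set 4 (13.3%). Hspa4, a constitutive Hsp110, was at 115, 64.3, 107 and 75.6 CPM, 1.79-fold from set 2 to set 1 (1.74 to 1.84), with set 1 highest in 8 of 8 areas. Hspa14, an Hsp70 relative bound to ribosomes, was at 47.2, 27.9, 45.8 and 28.6 CPM. Hspa4l, a further Hsp110, was at 174, 124, 150 and 134 CPM over whole sections and was lower in white matter at ratios of 0.524 to 0.567. Hspa2, an Hsp70 gene known from testis, hardly differed between sections, at 32.8, 32.9, 32.9 and 31.2 CPM.

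Hspa2 instead differed strongly between areas. In the ventricle and choroid plexus area it was at 126, 198, 103 and 175 CPM against 28.4, 31.8, 30.6 and 29.2 CPM elsewhere, ratios of 4.45, 6.25, 3.37 and 6.01. It was highest in sets 2 and 4, the sets with the lowest choroid plexus sums in this area. The hypothalamic and preoptic markers also differed in this area, at 3309, 9396, 2924 and 9219 CPM in sets 1 to 4. The part of either difference in the order of the Hspa2 levels was not tested. When spots were assigned by their own marker score, Hspa2 was 5.49, 3.35, 4.43 and 5.39 times its level elsewhere in ventricle lining spots, but 2.21, 1.68, 2.22 and 1.27 times in choroid plexus spots (of which set 2 had 2). It was also higher in the meningeal area, at 56.0, 58.0, 55.4 and 56.2 CPM and 1.71-fold to 1.82-fold, and lower in the thalamic area, at 19.0 and 20.3 CPM in sets 1 and 4.

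Hspa12a and Hspa12b, distant Hsp70 relatives, were called in different areas. Hspa12a was lower in white matter at 43.9, 55.1, 60.8 and 44.2 CPM against 179.9, 166, 176 and 146 CPM, ratios of 0.244 to 0.346, and lower in the ventricle and choroid plexus area at 60.9, 104, 62.6 and 55.8 CPM. Hspa12b, described in endothelial cells, was higher in the meningeal area at 20.5, 39.1, 30.04 and 36.1 CPM against 10.5, 12.6, 10.5 and 14.3 CPM, and in the thalamic area at 17.0 and 24.0 CPM in sets 1 and 4. The 9 endothelial markers measured summed to 822, 971, 685 and 1120 CPM in the meningeal area and to 306, 322, 233 and 331 CPM over whole sections, and none was at 0. In the thalamic area they summed to 252 and 313 CPM in sets 1 and 4, below the whole section. Of the markers compared, 7 of 7 endothelial, 4 of 4 mural, 9 of 10 astrocyte, 9 of 10 microglia and 2 of 2 blood genes were called higher in the meningeal area, against 5.7% of all genes. Their part in the levels of Hspa12b, Hspa2 and Hspb8 there was not tested.

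The mitochondrial chaperones had 6 compared members, of which 3 (Hspa9, Hspe1 and Dnajc15) were higher in set 3 than in set 2, against 11.5% of all genes. By TMM this share of all genes was 18.8%, and the mitochondrial members were not counted by TMM. Other pairs of sets held fewer of these members by CPM. Only Hspa9 and Hspe1 were higher in set 3 than in set 4 (all genes 13.3%). Only Hspa9 was higher in set 1 than in set 2 (15.7%) and set 4 (15.9%). Hspa9 (mortalin, the mitochondrial Hsp70) was at 233, 122, 215 and 133 CPM, 1.91-fold from set 2 to set 1 (1.87 to 1.95), and its range within areas was 1.66-fold to 2.24-fold. Hspe1, the small chaperonin ring, was at 147, 105, 192 and 112 CPM, 1.83-fold from set 2 to set 3 (1.79 to 1.87). Its partner Hspd1, whose promoter window overlaps, had the same highest and lowest sets at 195, 162, 217 and 182 CPM but a range of only 1.34-fold (1.31 to 1.36). Both were highest in set 3 in 8 of 8 areas.

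The chaperonin pair also differed by area. Hspe1 was at 203, 136, 245 and 171 CPM in the striatal area against 133, 95.03, 178 and 103 CPM elsewhere, ratios of 1.52, 1.43, 1.38 and 1.66, so it was higher in all 4 sets without a call. Hspd1 was level there, with ratios of 0.978, 1.00, 1.00 and 0.959. Dnajc15, a J-protein of the mitochondrial import machinery, was highest in set 3 at 77.1, 63.0, 98.4 and 70.1 CPM and lower in white matter at ratios of 0.528 to 0.612. Dnajc11 and Dnajc4 stayed within 1.5-fold over the sets and had no area call. Dnajc28 and Dnajc30 were below the level for comparison, Dnajc28 at 6.27, 4.25, 3.30 and 3.85 CPM and Dnajc30, highest in sets 2 and 4, at 4.16, 7.69, 4.32 and 10.1 CPM.

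Of the 3 compared members with an Hspb symbol, the small heat-shock protein genes Hspb8 and Hspb6 had area calls and Hspb11 had none. Hspb8, a partner of the cochaperone Bag3 in selective autophagy, was called in 6 of the 9 areas, more than any other member. In the ventricle and choroid plexus area it was at 117, 73.3, 115 and 50.3 CPM against 18.6, 22.0, 16.7 and 14.5 CPM, and in the cholinergic area at 44.1, 84.4, 48.5 and 38.7 CPM against 21.8, 18.7, 18.1 and 12.8 CPM. It was 1.52-fold to 2.64-fold higher in white matter and 1.72-fold to 3.23-fold higher in the meningeal area. In cortex it was low, at 9.01, 9.28, 10.8 and 3.36 CPM in the upper cortical area and 11.3, 12.6, 9.76 and 4.48 CPM in the deep cortical area. Set 4 had the lowest Hspb8 level in 8 of 8 areas, and over whole sections Hspb8 was at 23.1, 22.4, 19.9 and 15.04 CPM.

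Hspb8 and Hspa2 differed in where around the ventricle they were high. By spot score, Hspb8 was 5.28, 4.12, 4.92 and 4.27 times its level elsewhere in choroid plexus spots, against 2.22, 1.30, 2.31 and 1.12 times in ventricle lining spots, the reverse of Hspa2. Set 2 had 2 choroid plexus spots and 5 Hspb8 counts in them. In set 2 the joint ventricle and choroid plexus area was nearly free of choroid plexus signal, yet Hspb8 was still at least 1.5-fold higher there. The set 2 values therefore do not settle where around the ventricle Hspb8 was high. Hspb6, known from muscle, was at 72.5, 36.0, 75.1 and 61.3 CPM in the ventricle and choroid plexus area, 3.09-fold to 6.47-fold above other spots. Hspb11 was at 37.1, 35.6, 33.8 and 31.7 CPM over whole sections.

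**Figure D4:**
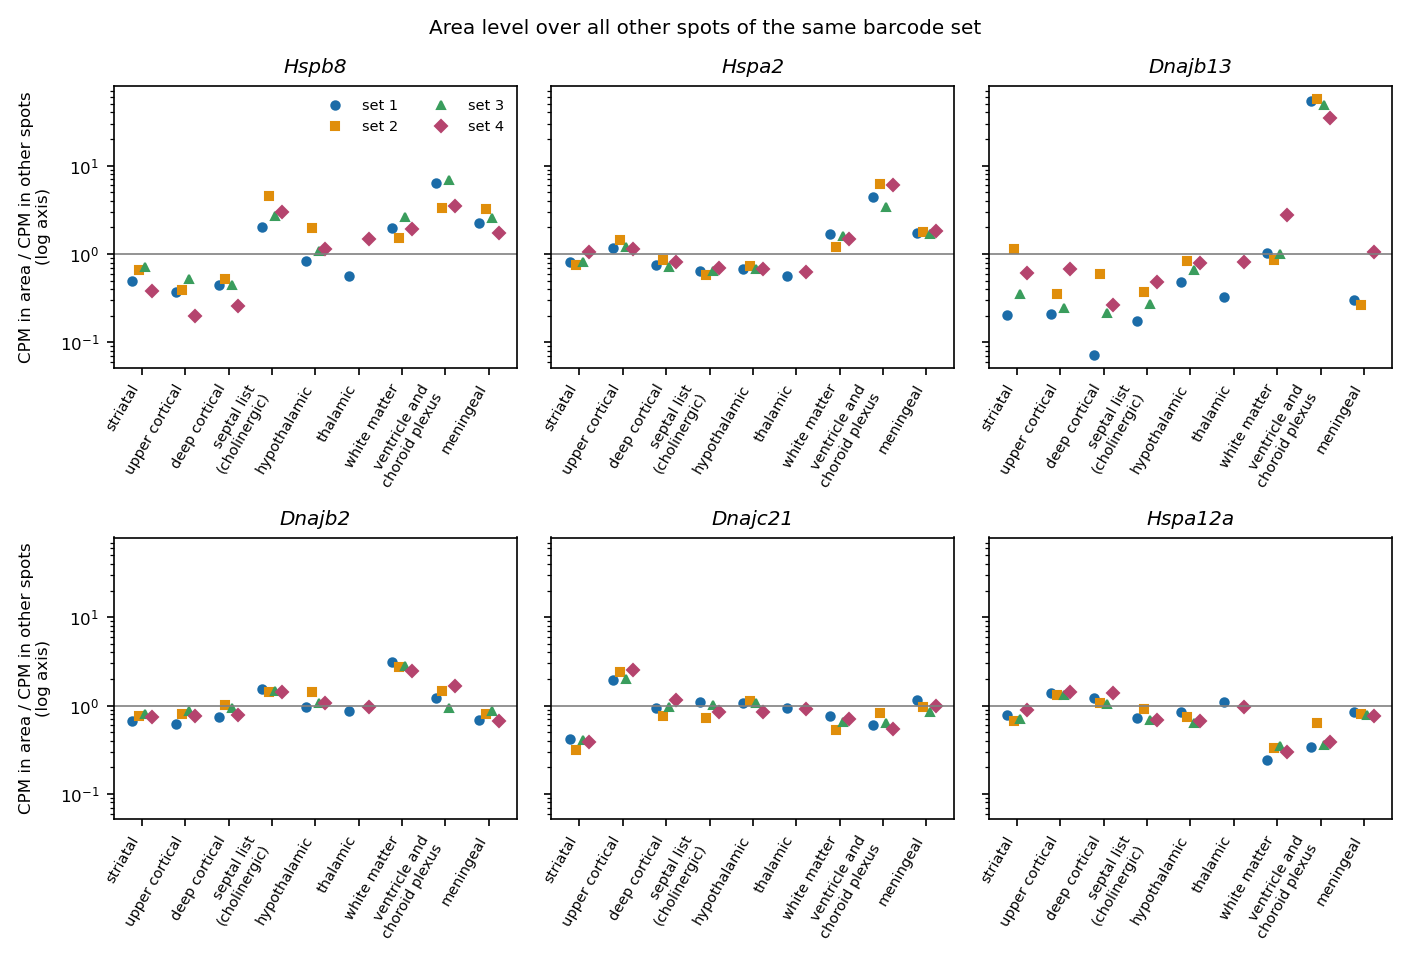
Ratio (log axis) of a gene's CPM in each area to its CPM in all other spots of the same barcode set, for Hspb8, Hspa2, Dnajb13, Dnajb2, Dnajc21 and Hspa12a; the line marks a ratio of 1, the thalamic area has sets 1 and 4 only, and Dnajb13 had no count in the meningeal area of set 3. Dnajb13 reaches 57.1 in the ventricle and choroid plexus area, where Hspb8 and Hspa2 are also above 1 in all 4 sets.

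The less measured small heat-shock genes are described without a call. Hspb1, the inducible Hsp27, was at 22.0, 45.3, 30.8 and 28.1 CPM in the meningeal area against 7.70, 11.2, 6.77 and 12.6 CPM elsewhere, higher in all 4 sets. Hspb2, next to the lens crystallin gene Cryab in the genome, was 2.25-fold to 2.90-fold higher in the deep cortical area at levels of 2.58 to 4.78 CPM. Hspb3, known from muscle, was at 9.62, 23.0, 10.6 and 24.2 CPM in the upper cortical area and at 0.687, 1.64, 0.998 and 1.97 CPM in the striatal area. Sets 2 and 4 were the higher ones in both areas.

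The type A and B J-proteins, which partner cytosolic and nuclear Hsp70, had 8 compared members and the clearest white matter gene. Dnajb2, which binds ubiquitinated clients, was at 401, 455, 367 and 445 CPM in white matter against 130, 167, 131 and 183 CPM elsewhere, ratios of 3.09, 2.72, 2.82 and 2.43. All 4 sets were high, and the sets' whole-section levels of 145, 177, 136 and 193 CPM stayed within 1.5-fold. Dnaja4 was higher in the ventricle and choroid plexus area at 142, 153, 153 and 148 CPM against 55.9, 69.3, 67.0 and 56.4 CPM.

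Dnajb5, a relative of Dnajb1, was lower in 3 areas. It was at 29.0, 45.3, 23.3 and 25.2 CPM in the ventricle and choroid plexus area, 37.9, 56.5, 43.6 and 45.7 CPM in white matter and 39.9, 33.8, 33.4 and 42.7 CPM in the cholinergic area, against 65.5 to 108 CPM in the other spots of those comparisons. In the upper cortical area it was at 136, 148, 80.7 and 152 CPM, 1.27-fold to 1.94-fold above other spots. Over whole sections it was at 81.6, 104, 64.9 and 89.1 CPM, highest in set 2, but set 2 was the highest in only 3 of 8 areas. Dnaja2 was at 247, 231, 308 and 216 CPM, highest in set 3 in 8 of 8 areas. Dnajb6 was at 11.8, 16.8, 15.3 and 15.6 CPM with no area call. Dnaja1, Dnajb1 and Dnajb4 belong to this family too and are described above. Dnajb3 was below the level for comparison at 5.23, 6.88, 5.52 and 7.91 CPM.

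Dnajb13, a J-protein of the motile cilium, was at 3.27, 1.26, 2.16 and 1.53 CPM over whole sections, below the level for comparison, yet its ratios in the ventricle and choroid plexus area were above those of the compared members. In the ventricle and choroid plexus area it was at 52.1, 51.9, 41.5 and 36.2 CPM against 0.959, 0.909, 0.863 and 1.04 CPM elsewhere, ratios of 54.3, 57.1, 48.1 and 34.8. The level was high in all 4 sets, set 2 included. By spot score it was at 68.1, 22.2, 45.8 and 31.5 CPM in ventricle lining spots and at 22.3, 0, 21.8 and 3.60 CPM in choroid plexus spots. The ventricle lining carries motile cilia.

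The vesicle and endosome J-proteins had 4 compared members. Dnajc6 (auxilin) was lower in the striatal area at 140, 94.7, 124 and 83.7 CPM against 265, 158, 222 and 158 CPM, ratios of 0.530, 0.601, 0.558 and 0.529, and higher in the thalamic area at 376 and 213 CPM in sets 1 and 4. Over whole sections it was at 240.2, 142, 200.4 and 148 CPM, 1.69-fold from set 2 to set 1. Dnajc5 (cysteine string protein) was lower in white matter at 101, 156, 121 and 130 CPM against 243, 278, 245 and 270 CPM. In the ventricle and choroid plexus area Dnajc5 had ratios of 0.418, 0.737, 0.465 and 0.469, with set 2 keeping it from a call. Dnajc13 and Dnajc27 had no area call.

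The other type C J-proteins had 7 compared members. Dnajc21, a ribosome biogenesis factor, was lower in the striatal area at 25.3, 22.4, 28.0 and 24.1 CPM against 60.9, 71.7, 69.5 and 62.1 CPM, and higher in the upper cortical area at 100.2, 125, 113 and 119 CPM against 51.0, 52.4, 56.2 and 46.9 CPM. All 4 sets agreed in both areas, while the whole-section levels of 53.8, 59.3, 60.4 and 57.0 CPM hardly differed. Dnajc2, a ribosome-associated J-protein, was the member higher in the striatal area, at 54.5, 47.9, 49.3 and 37.5 CPM against 33.5, 27.3, 27.6 and 21.5 CPM. Dnajc24, which takes part in making the diphthamide residue of an elongation factor, was 1.58-fold to 2.02-fold higher in white matter.

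Dnajc12, a cochaperone of the aromatic amino acid hydroxylases, was higher in the cholinergic area at 74.3, 88.9, 86.4 and 83.0 CPM against 46.8, 45.4, 52.1 and 54.4 CPM. It was higher in the thalamic area at 75.3 and 91.0 CPM in sets 1 and 4, and in the hypothalamic and preoptic area its ratios were 1.72, 2.15, 1.55 and 1.47, with set 4 short of the threshold. Its median log2 ratios over the 9 areas had a correlation of 0.99 with those of Hspd1, the highest of all member pairs, though the Hspd1 ratios were smaller. Dnajc7, a J-protein that binds both Hsp70 and Hsp90, was at 158, 113, 147 and 89.9 CPM over whole sections, 1.76-fold from set 4 to set 1 (1.71 to 1.80), and lowest in set 4 in 8 of 8 areas. Dnajc9 and Dnajc14 had no area call and stayed within 1.5-fold over the sets.

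Counted within each area, the members were apart over the sets at shares near or below those of all genes. A range of at least 1.5-fold was found for 16 of 48 members in the striatal area (all genes 37%), 22 of 49 in the upper cortical area (43.1%), 18 of 46 in the deep cortical area (41.1%) and 14 of 49 in the cholinergic area (43.7%). It was found for 20 of 49 in the hypothalamic and preoptic area (41.2%), 19 of 48 in white matter (53%), 27 of 52 in the ventricle and choroid plexus area (69.9%) and 25 of 50 in the meningeal area (55%). The number compared differs because the 10 CPM minimum was applied within the area.

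A wider list of chaperones and their regulators that carry none of these symbols was counted in the same way. Of 51 genes measured, 50 were compared, and between sets 1 and 2 there were 8 higher in set 1 and 9 higher in set 2 (all genes 15.7% and 8.69%), between sets 1 and 4 there were 9 and 9 (15.9% and 9.96%), and between sets 3 and 4 there were 8 higher in set 3 and 7 in set 4 (13.3% and 9.91%). Ppid, a cyclophilin partner of Hsp90, was at 45.8, 14.1, 38.8 and 14.6 CPM, and Hsf2, a heat-shock factor, at 34.2, 13.2, 30.5 and 14.0 CPM, high in sets 1 and 3. Canx, the ER lectin calnexin, was at 598, 229, 507 and 238 CPM in the same order. Its ER neighbour Pdia3, a disulfide isomerase, ran the other way at 222, 430.0, 217 and 421 CPM, as did the unfolded protein response factor Xbp1 at 55.8, 111, 51.1 and 85.8 CPM and the ER gene Sdf2l1 at 17.2, 39.3, 17.8 and 37.9 CPM. Cct8 and Cct4, subunits of the cytosolic chaperonin, a single complex, ran in opposite ways: Cct8 was at 214, 117, 184 and 128 CPM, while Cct4 was at 32.0, 51.5, 26.4 and 64.0 CPM. These 8 genes were chosen after their values were seen. Of the other chaperonin subunits measured, Cct7 ran as Cct4 did, at 94.1, 172, 103 and 196 CPM. Tcp1, Cct2, Cct3, Cct5 and Cct6a stayed within 1.5-fold over the sets. By area, the wider list gave the most higher calls in the ventricle and choroid plexus area (Creld2, Pdia4 and Sil1, all of the ER) and the thalamic area (Ahsa2, Fkbp4 and Hsf4), 3 of 50 each against 7.39% and 5.17% of all genes, and the most lower calls in the striatal area, 5 of 50 against 12% of all genes. Hsf1, St13, Ptges3, Rbm3 and Pdia6 were not analysed here.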

How the data were processed

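Spatial gene expression was measured in 4 mouse brains with the Visium CytAssist assay for formalin-fixed tissue, version 2 of the kit, per the labels. The deposited table holds raw counts of 19465 genes in 12602 spots, with 4 barcode endings that match no sample label. The submitters' processing notes name Space Ranger and Seurat. The genome build, the probe set and the filter on spots are not given in the sources used here.

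Spots with at least 500 counts were kept (12601). Counts were summed per gene over a barcode set, or over an area of a set, and scaled to a total of 1000000 over all genes (CPM). Total counts of 90752475 to 174761560 per set limit the precision, as the exact Poisson intervals and exact conditional binomial intervals at 95% show. A gene was called apart at a 1.5-fold difference, on log2(CPM + 1) between sets and on the ratio itself between areas, where the mean over sets reached 10 CPM. No p-values were computed, since no set can be put in a genotype, and means over sets serve only as a filter on level. The sets are single sections with no known group.

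Areas came from Leiden clusters (scanpy 1.11.5, leidenalg 0.10.2, resolution 0.8, 30 components, 15 neighbours, 2000 variable genes) centred per gene within each set, without chaperone, immediate-early, Celsr or sex-linked genes. A cluster joined the area whose marker list held at least 3 of its 20 leading genes and more than any other list. Doublets were not called, since spots are not cells. The alternative scalings, TMM and RLE, were computed with edgeR 4.0.16 (R 4.3.3). The calls were run on simulated Poisson counts with a planted fold change, for areas in the striatal area only. The simulation had no variation between sections, mixed cell types or change of clusters, so it bears on counting error only. The members and lists were chosen with earlier results of these data known. Named with values are the 10 members with the widest ranges over the sets, the 10 widest over areas, and the 3 with most and 3 with fewest counts; other members with values were picked by role after their values were seen. Alternatives were other folds, minimum levels, spot filters, cluster resolutions and scalings, areas from spot scores, thinned counts, and each set left out. Promoter windows were taken from a RefSeq table of build GRCm38.p6.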

Additional observations from a re-analysis of the deposited data

How the results depend on the processing

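No paired analysis was possible because no barcode ending could be tied to a brain or its replicate number. Direction was checked for the 10 members with the widest ranges over the sets and the 10 widest over areas. Each was followed only in its own most extreme pair of sets or area. None of these log2 values changed sign in the alternative runs that held them. Each value was the most extreme of its member, so a kept sign says little about how stable its size was. Over the alternative runs, 56 log2 values were recorded as moved from the main run and 204 as the same. Among the counts followed, 94 were recorded as moved and 265 as the same. The other calls were followed by their number only, so their direction was not checked. With a threshold of 2-fold, the members apart fell to 1 (set 1 against 2), 2 (1 against 4), 1 (2 against 3), 2 (3 against 4) and 2 over all sets; 7 area calls were higher and 4 lower, and 46 pairs of a member and an area had that range over the sets. With no minimum level, these counts were 17 (set 1 against 2), 1 (1 against 3), 21 (1 against 4), 14 (2 against 3) and 27 over all sets, with 35 higher and 33 lower area calls and 253 pairs within areas. A minimum of 1 CPM gave 26 lower area calls; set 1 then differed from set 3 for 1 member and set 2 from set 3 for 14. TMM scaling gave 22 lower area calls. It put 1 member higher in set 2 than in set 4 (all genes 1.7%) and 16 higher in set 3 than in set 4 (25.9%). RLE scaling gave 1 and 17 for those pairs of sets (1.66% and 25.9%). Apart from pairs of sets under TMM and RLE scaling, no share of all genes was computed for the alternatives. Those counts show how the number of calls moved and cannot be set against all genes. Lower area calls were 27 with a minimum of 2000 counts per spot and 21 at cluster resolution 1.2. Leaving out each set in turn gave 21 to 22 higher and 15 to 22 lower area calls, the most without set 2, against 20 and 13 with all sets; fewer sets make the call easier. It gave 118 to 136 pairs within areas against 161, and 13 to 15 members apart over all sets against 17. Between single sets it gave 11 to 11, 13 to 14, 9 to 10 and 9 to 10 members for sets 1 and 2, 1 and 4, 2 and 3, and 3 and 4, since the level filter then used other sets. The median log2 ratio of Hspa2 in the ventricle and choroid plexus area was 2.37, and 1.15 by spot score. With a minimum of 2000 counts per spot and at resolution 1.2, ventricle lining spots formed a cluster of their own, and the choroid plexus cluster reached 30 spots in sets 1 and 3 only; there Hspa2 was at 1.49 and 1.51, and Hspb8, at 2.22 in the joint area, was at 2.86 in both. The 18 members under 10 CPM were left out of the calls by the level filter; Hspb1, at 1162 to 1374 counts per set, lay just below it, while Dnajc5g had 11 to 42.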
